A study of Kluyveromyces marxianus with 6 samples.

Results

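This account concerns 246 long antisense ncRNAs (lancRNAs) of the yeast *Kluyveromyces marxianus*. They overlap the 3′ end of a single mRNA transfrag and leave the 5′ end of that transfrag free. They were chosen by position alone, as lancRNA transfrags that overlap by at least 1 bp exactly 1 mRNA transfrag of the opposite strand, extend past its 3′ end and stop inside it, so that the first base of the mRNA stays uncovered. A transfrag is a contiguous stretch of genome covered by reads. The 246 lancRNAs were drawn from 3067 lancRNAs and 14298 transfrags in all. Strain ATCC 36907 (KM7) was grown in uracil-deprived synthetic medium with dextrose at 30 °C and sampled at an optical density of about 3 (early-exponential, EE), 7 (mid-exponential, ME) and 10 (late-exponential, LE). Strand-specific libraries were made from rRNA-depleted RNA, 6 in all with 2 biological replicates per growth phase, all of the same strain and without any treatment. For every transfrag the deposited file gives a single transcriptional level in each phase, which is a normalized read signal averaged by the authors over both libraries and not scaled by length. No difference between growth phases could therefore be tested against replicates, and a change is described as at least 2-fold when the level plus 1 differs by that factor.

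Antisense RNAs that begin downstream of a gene and run back into it are made when a promoter, often in the nucleosome-poor stretch behind the coding sequence, fires on the other strand. In *S. cerevisiae* many such RNAs are rapidly destroyed by the nuclear exosome, and some interfere with the mRNA by transcription through its promoter or by changes of chromatin. An antisense RNA that ends before the mRNA 5′ end, as here, leaves the mapped start of the mRNA transfrag untouched. Convergent genes are another source of 3′ overlap, since the end of one transcript can run into the end of the other.

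The depth behind these levels was uneven. From the steps between low levels, 4411686 reads were estimated to lie on the listed transfrags at EE, 10955709 at ME and 13758980 at LE. These estimates amount to 18.9%, 39.0% and 36.7% of the mapped reads of the phases, so the mapped reads were less uneven than the reads behind the levels. The paper places most mapped reads on the sense strand of protein-coding genes alone, so these estimates lie below its shares. The reason was not tested. The levels of 3 reads, the counting errors and the scaling by mapped reads given below rest on the same steps. On the same steps, 3 reads corresponded to a level of 4.00 at EE, 1.09 at ME and 1.19 at LE. In EE, low levels could be split into the reads of both libraries, and over 129 of the 246 lancRNAs the spread between these libraries had a variance 2.24 times that of counting alone, against 2.12 times over 8160 transfrags of all classes. Errors given below cover counting only and are too small by about the square root of these values. Levels at or under 3 reads were held by 40 of the 246 lancRNAs at EE, 24 at ME and 42 at LE.

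The lancRNAs lay on 17 contigs, 121 on the plus and 125 on the minus strand, and every one overlapped an mRNA of its own. Their median length was 406 bp (range, 200 to 2697 bp), against 829 bp for the overlapped mRNA transfrags. The overlap had a median of 219 bp (quartiles, 129.25 and 471.25 bp) and took up a median of 60.8% of the lancRNA and 36.1% of the mRNA. A median of 169.5 bp lay past the mRNA 3′ end, with a range of 2 to 1174 bp. Up to 25% of the mRNA was covered in 94 pairs, over 25% to 50% in 64 pairs and over 50% in 88 pairs. At the short end of the rule stood transfrag17841, which overlapped its mRNA by 2 bp with levels of 0.71 at EE, 4.05 at ME and 1.99 at LE. At the other end stood transfrag02359 and transfrag14670, which stopped 3 bases short of the mRNA 5′ end. Just outside the rule were 3 lancRNAs that reached exactly the first base of their mRNA, of which transfrag13848 had levels of 2287.32 at EE, 636.94 at ME and 992.78 at LE.

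**Figure D1:**
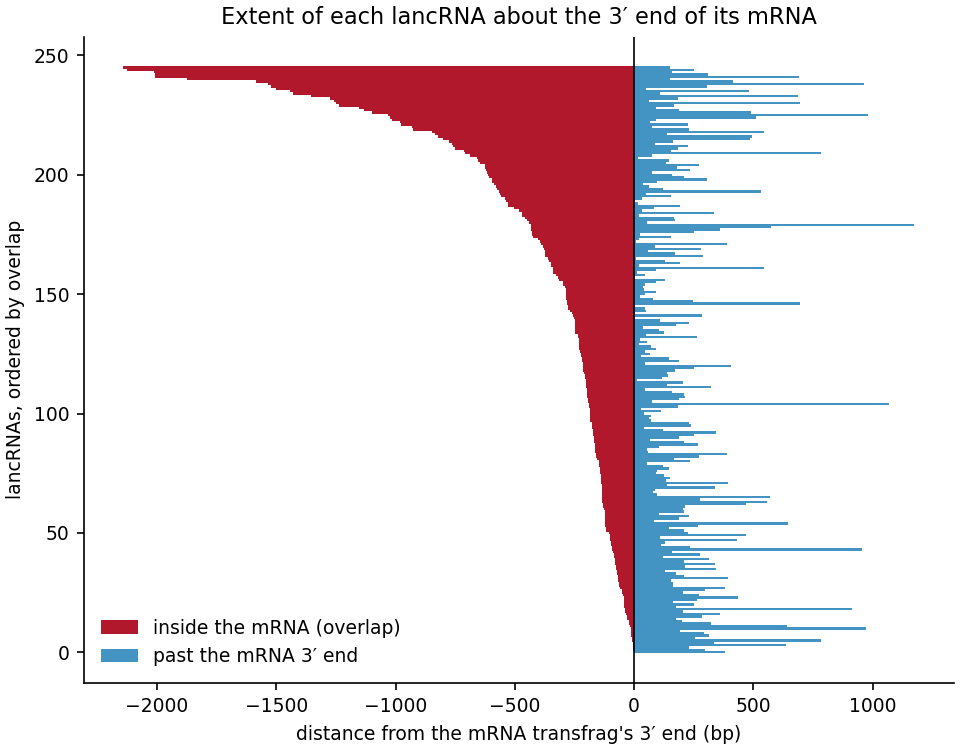
Extent of each of the 246 lancRNAs about the 3′ end of its mRNA transfrag, ordered by overlap (horizontal axis, distance in bp; red, part inside the mRNA; blue, part past the 3′ end). The overlap spans 2 to 2141 bp, and the part past the 3′ end spans 2 to 1174 bp.

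Neither end of an mRNA transfrag was always the end of the gene. At the homolog of RPC2 (gene bases 85356 to 88784, plus strand), the mRNA transfrag began only at base 87763. The 5′ end left free there was that of the transfrag, not of the gene. Gene models held here matched 99 of the 246 mRNAs, and 97 of these had a named closest homolog. Of the 99 lancRNAs, 63 started past the end of the gene and 36 started inside it, where the mRNA transfrag itself stopped short of the gene end. The 63 lancRNAs had median levels of 17.9 at EE, 16.5 at ME and 13.0 at LE, and their mRNAs 187.65, 358.14 and 569.7 in the same order. The 36 lancRNAs inside genes had median levels of 7.58 at EE, 3.22 at ME and 2.47 at LE, opposite mRNA transfrags with medians of 14.1, 37.5 and 20.6. The lancRNAs inside genes thus lay opposite mRNA transfrags of lower median level. The change in LE against EE is given below for both sets. The other counts and comparisons mix them with the 147 lancRNAs whose mRNA had no gene model held here. The next gene downstream was known for 97 of the mRNAs and faced it (convergent) in 36 of them, 37.1%, against 54.4% of the 1966 gene models with a known neighbour. The gene models held here are a part of the set, so these shares describe that part only. Transfrags were also divided at gene boundaries, and a stretch on a convergent gene's own strand is classed as sense, not as lancRNA. The class rule thus bears on the convergent share of these lancRNAs, and its part was not tested.

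The count of close neighbours on the same strand is limited by how transfrags were made, since the authors joined those under 40 bp apart and those up to 100 bp apart with similar coverage. Neighbours that continue into each other were thus largely merged before any count. After that step, a same-strand transfrag ended within 100 bp upstream of 13 of 246 lancRNAs (5.28%, exact 95% interval 2.84 to 8.87%), of which 5 were mRNAs and 4 were lincRNAs, the intergenic long ncRNAs. The share was 6.88% (4.89 to 9.36%) among the 538 lancRNAs past only the mRNA 5′ end and 7.15% (5.82 to 8.67%) among the 1329 lancRNAs inside an mRNA, so the intervals overlapped. Across the 13 pairs of lancRNA and upstream neighbour, Pearson's coefficient of log10(level + 1) was 0.12 at EE, -0.40 at ME and -0.14 at LE, and across the 109 pairs with a gap of up to 500 bp it was 0.06, 0.13 and 0.12. On the downstream side, 71 of the 130 transfrags within 500 bp were themselves lancRNAs. Another antisense transfrag lay on 121 of the 246 mRNAs, and in 83 of them it was another lancRNA.

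The 246 lancRNAs were transcribed at low levels, with a deposited median that was highest in EE. Their median level was 10.9 at EE, 8.37 at ME and 7.41 at LE, with quartiles of 6.04 and 29.7 in EE and of 2.01 and 36.4 in LE. This order depends on the scaling, since with mapped reads the median log2 change against EE was 0.67 in ME and 0.00 in LE, and it did not hold at a mean level of at least 10, where 49 were at least 2-fold higher and 31 lower in LE, against 47.6% and 22.7% of all transfrags at such levels. The mRNAs they overlap were highest in LE, with medians of 65.4 at EE, 166.6 at ME and 214.5 at LE. Per kb, the medians were 29.0, 20.3 and 16.3 for the lancRNAs and 74.0, 187 and 234 for the mRNAs in EE, ME and LE. EE was the phase of the highest level for 134 of the lancRNAs (54.5%), against 37.8% of all other lancRNAs, and LE was the phase of the highest level for 122 of the 246 mRNAs. The median lancRNA had 14.8% of the level of its mRNA at EE, 6.67% at ME and 5.57% at LE. Per kb, 63 lancRNAs exceeded their mRNA at EE, 25 at ME and 33 at LE, and 9 did so in every phase.

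**Figure D2:**
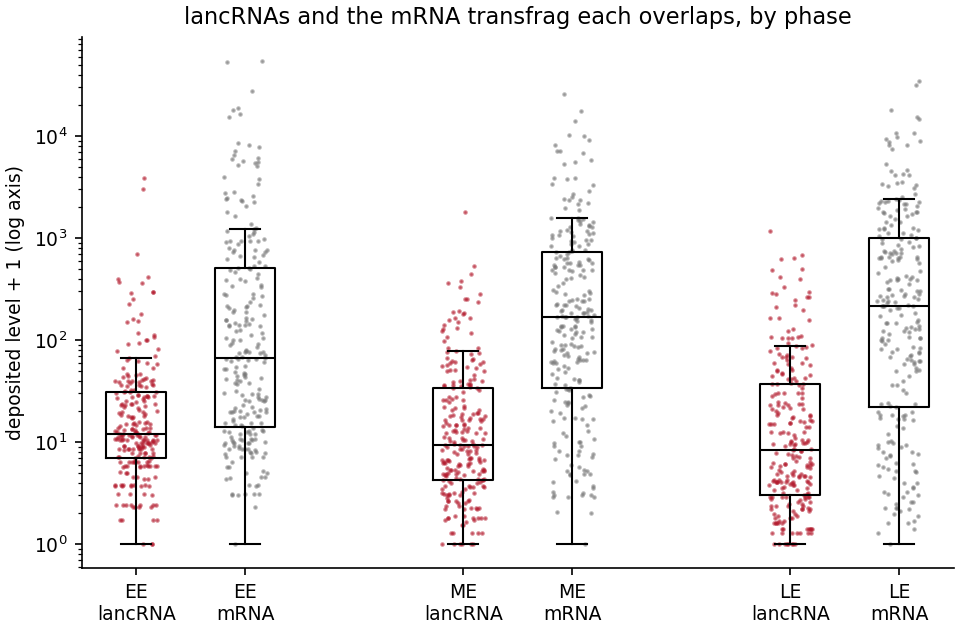
Deposited level plus 1 (log axis) of the 246 lancRNAs (red) and of the mRNA transfrag each overlaps (grey) in EE, ME and LE, each point a transfrag, with boxes for the quartiles and the median and whiskers to the farthest value within 1.5 box lengths. The lancRNA median is 10.9, 8.37 and 7.41 and the mRNA median 65.4, 166.6 and 214.5 before the 1 is added.

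A few lancRNAs carried much of the summed level. The 6 with the highest mean level held 52.6% of it at EE, 35.2% at ME and 33.0% at LE. The 246 lancRNAs together made up 10.2% of the level of all lancRNAs at EE, 3.21% at ME and 3.11% at LE, with 8.02% of the number. Without the 61 lancRNAs that overlap an RNA gene, these shares were 11.6%, 5.14% and 4.84%. With the 6 highest of the 246 left out as well, they were 5.51%, 3.33% and 3.25%, so the higher EE share rests largely on those 6.

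The highest of all was transfrag06217 (contig 103, bases 540852 to 541826, minus strand), with levels of 3025.59 at EE, 1785.19 at ME and 1176.01 at LE. It covered 26.8% of the mRNA of the homolog of EAF5, a subunit of the NuA4 histone acetyltransferase complex, whose levels were 60.0, 200.44 and 301.3. The lancRNA was 2.57-fold lower in LE than in EE while the mRNA was 5.02-fold higher, and per kb the lancRNA stood at 11.4 times the mRNA over the 3 phases. It also overlapped a lincRNA of the opposite strand in the 695 bp past the mRNA.

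The next, transfrag21331 (contig 112, bases 202134 to 204509, plus strand), had levels of 3907.49 at EE, 374.92 at ME and 640.72 at LE. It lay along 98.0% of an mRNA without a gene model held here that reached 8116.14, 14041.8 and 15505.5 in EE, ME and LE. The lancRNA was 6.10-fold lower in LE than in EE, and the mRNA 1.91-fold higher. The level of transfrag02359 (contig 98, bases 205630 to 207950, plus strand) was 693.16 at EE, 190.59 at ME and 396.83 at LE, opposite the homolog of TEC1, a transcription factor of filamentous growth, with 88.23, 80.82 and 133.16. This lancRNA covered 99.9% of the mRNA transfrag and stood above it in every phase.

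The other 3 of the 6 were lowest in EE and highest in LE. Levels of transfrag01618 (contig 91, bases 36107 to 37640, minus strand) were 35.64 at EE, 536.21 at ME and 685.93 at LE, a 19.2-fold difference between LE and EE. Its mRNA had 18683.5, 10014.3 and 18118.7, so its own levels in EE and LE were nearly equal. Levels of transfrag19275 (contig 110, bases 794370 to 796314, minus strand) were 150.25 at EE, 438.49 at ME and 625.0 at LE, opposite an mRNA with 52688.0, 7155.27 and 9307.34. The sixth, transfrag15275 (contig 106, bases 481219 to 483241, minus strand), had 287.72, 332.43 and 496.09, and its mRNA 83.77, 611.74 and 712.69.

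In the levels as deposited, more of the 246 lancRNAs were lower than higher in ME and LE against EE, at shares close to those of all transfrags. In ME against EE, 56 passed 2-fold upwards and 90 downwards (22.8% and 36.6%), against 26.7% and 36.9% of all transfrags. In LE against EE, 60 were higher and 103 lower (24.4% and 41.9%), against 27.0% and 42.7% of all transfrags. In LE against ME, 16 were higher and 33 lower (6.50% and 13.4%), against 5.22% and 14.8% of all transfrags. The median log2 change was -0.55 in ME and -0.64 in LE against EE, beside medians of -0.40 and -0.62 over all transfrags, and 0.00 in LE against ME. Beyond 2 counting errors, widened by the spread between the EE libraries, 40 were higher and 69 lower in ME against EE (18.9% and 24.3% of all transfrags), 45 and 83 in LE against EE (20.0% and 28.8%) and 14 and 19 in LE against ME (3.20% and 8.15%). The shares depend on the scaling, since with levels scaled by mapped reads the median of all transfrags moves to 0.76 in ME and 0.00 in LE against EE. With that scaling 107 lancRNAs were higher and 44 lower in ME against EE, and 83 were higher and 78 lower in LE against EE, so the direction turned in both.

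In LE against EE, the lancRNAs at the mRNA 3′ end had a lower median change than the other lancRNAs. Over all 3067 lancRNAs, 37.1% passed 2-fold upwards in LE against EE and 28.6% downwards. The median log2 change was -0.64 for the 246 lancRNAs, 0.58 for the 538 past only the mRNA 5′ end, 0.32 for the 1329 inside an mRNA and 0.57 for the 62 that reach both ends. Closest was the median of 0.08 for the 795 lancRNAs with no overlapping mRNA, of which 34.0% were higher and 32.2% lower. For the 97 that overlap several mRNAs the median was 0.88. Much of the count of falls came from low levels: of the 123 lancRNAs with a mean level under 10, 11 were higher and 72 lower. At a mean level under 5, 60.0% of them and 62.1% of all transfrags were lower, and at 5 to 10, 56.6% and 48.0%. EE is imprecise at such levels, and its part in these falls was not tested. Of the 123 with a mean level of at least 10, 49 were higher and 31 lower (39.8% and 25.2%), against 47.6% and 22.7% of all transfrags at such levels. In ME against EE 42 of them were higher and 31 lower, against 44.4% and 20.4% of all transfrags at such levels, and in LE against ME 11 were higher and 10 lower, against 5.55% and 9.97%. The difference from other lancRNAs was also present there, with a median log2 change of 0.08 for the 123 lancRNAs, 1.45 for those past only the 5′ end, 1.50 for those inside an mRNA and 0.94 for those reaching both ends. At such levels it was 1.13 for the 376 with no overlapping mRNA and 1.48 for the 58 that overlap several. Within a mean level of 10 to 30 the median was -0.33 for 62 lancRNAs at the 3′ end and 1.08 for 469 other lancRNAs that overlap 1 mRNA. At 30 or more it was 0.67 for 61 and 1.89 for 444. Over all levels, the median of the 246 minus that of other lancRNAs that overlap 1 mRNA was -1.05 with the levels as deposited. It was -1.10 with levels scaled by mapped reads and -0.99 with levels scaled by summed mRNA level. All these comparisons share the EE libraries, and the difference was not tested, since each phase has a single value.

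**Figure D3:**
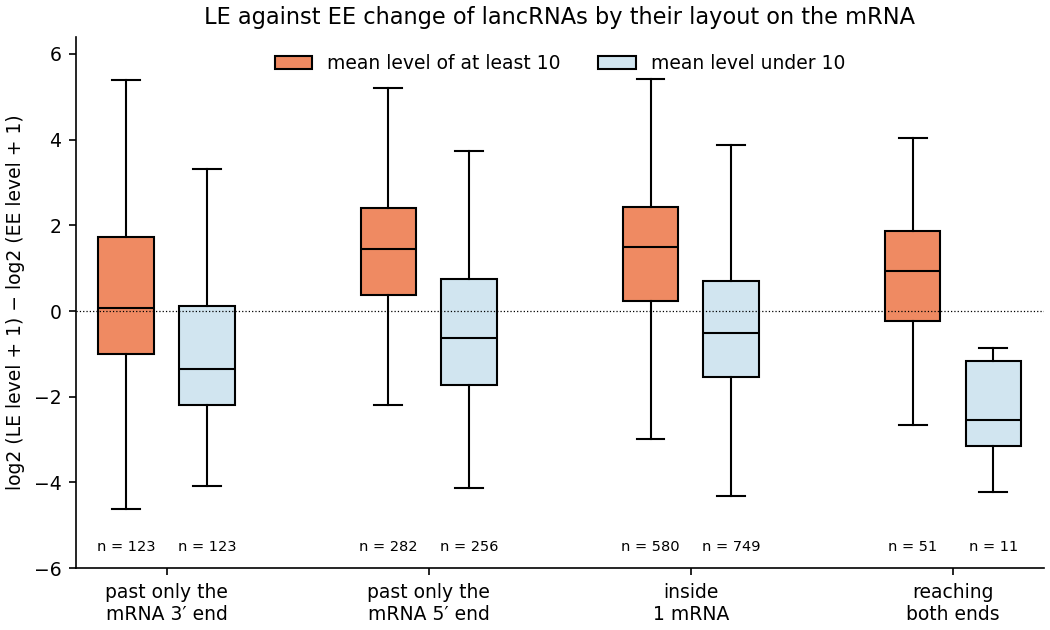
Log2 change in LE against EE (level + 1) of lancRNAs by their position on the mRNA, split at a mean level of 10, with boxes for the quartiles and the median, whiskers to the farthest value within 1.5 box lengths, and n under each box. At a mean level of at least 10, the median is 0.08 for lancRNAs past only the mRNA 3′ end, against 1.45, 1.50 and 0.94 for the other positions shown. LancRNAs with no overlapping mRNA or with several are not shown.

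The lancRNAs past the gene end and those inside genes are given side by side, since those inside genes had the lower levels stated above. Of the 63 that start past the gene end, 21 were at least 2-fold higher and 23 lower in LE than in EE, with a median log2 change of -0.36. Of the 36 that start inside the gene, 7 were higher and 18 lower, with a median of -0.93. Their mRNAs had medians of 1.19 and 0.44 in the same order. The part of level in this difference was not tested, nor was the difference itself.

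Of the 5 largest rises among lancRNAs with a mean level of at least 10, 3 had an EE level under 4.00. No reads of transfrag11073 (contig 105, bases 8991 to 9299, minus strand) were found at EE, against levels of 32.67 at ME and 41.05 at LE, so its LE level was at least 10.3-fold that of 3 reads in EE. It lay opposite a fragment of the homolog of PHO89, a sodium-coupled phosphate transporter, with 7.46, 4.25 and 2.95, and it began 175 bp inside the gene. The level of transfrag25379 (contig 112, bases 1198339 to 1198700, minus strand) was 2.12 at EE, 106.09 at ME and 88.15 at LE. In EE this came from 3 reads in one library and 0 in the other, so the LE level was at least 22.0-fold higher, while its mRNA stayed at 8.79, 8.94 and 8.31. The fourth rise, transfrag02564 (contig 98, bases 360164 to 360392, plus strand), had 0, 25.36 and 14.69, opposite a fragment with 5.41, 0 and 0.29. It lay inside a gene whose closest homolog, of low similarity (23.4% identity), is YL278, a zinc cluster protein. The third was transfrag01618, given above.

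The rise of transfrag08474 (contig 104, bases 28177 to 29497, minus strand) was from measured levels: 9.58 at EE, from 6 and 4 reads, 165.28 at ME and 154.5 at LE. This gives a log2 change in LE against EE of 3.88 ± 0.43 (counting error), and the mRNA had 216.26, 137.05 and 205.56. The closest homolog of the gene is HYUA, of low similarity (28.68% identity). The gene spans bases 28376 to 31369 on the plus strand and the mRNA transfrag ended at base 29310, so the lancRNA began inside the gene.

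The 5 largest falls were in lancRNAs that were nearly lost by LE or that fell by a large factor from a high level. The lancRNA opposite the homolog of RAS2, a GTPase that drives cAMP signalling, was transfrag09130 (contig 104, bases 490988 to 491645, minus strand). It had 37.99 at EE, 3.35 at ME and 1.68 at LE, a log2 change in LE of -3.86 ± 0.47 (counting error). The mRNA had 6.12, 40.25 and 67.7. That mRNA transfrag began at base 490876, inside the gene (bases 488510 to 491313, plus strand). With 391.53 at EE, 35.92 at ME and 45.89 at LE, transfrag28706 (contig 114, bases 285558 to 286453, minus strand) was 8.53-fold lower in LE, and its mRNA, at 500.97, 167.61 and 214.87, was also lower. Levels of transfrag17726 (contig 110) were 28.12 at EE, 4.54 at ME and 2.56 at LE, opposite an mRNA with 11.07, 10.33 and 8.28. Levels of transfrag29321 (contig 114) were 26.77, 5.19 and 3.04, opposite an mRNA with 11.46, 23.43 and 23.32. The remaining fall, transfrag31795 (contig 119), had 33.68, 3.43 and 0.4, and its mRNA 20.02, 55.18 and 75.8.

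In the levels as deposited, the overlapped mRNAs were more often higher than lower in LE. In LE against EE, 106 of the 246 mRNAs were at least 2-fold higher and 62 lower (43.1% and 25.2%), with a median log2 change of 0.83, against 34.2% and 37.2% of all mRNA transfrags. Scaled by summed mRNA level, 87 were higher and 79 lower. The overlapped mRNAs had a higher median level at EE than all mRNA transfrags, 65.4 against 24.1. At an mRNA mean level of at least 10, 104 were higher and 40 lower, against 47.6% and 22.7% of all transfrags at such levels. Of the 35 with a mean level under 10, 2 were higher and 22 lower. The part of level in the difference from all mRNAs was not tested. The mRNAs of the 538 lancRNAs past only the 5′ end were higher in 50.7% and lower in 19.7%, and those of the 1329 lancRNAs inside an mRNA in 48.6% and 14.6%. Among the 94 mRNAs of which up to 25% was covered, 48 were higher and 12 lower. Among the 88 of which over 50% was covered, 25 were higher and 29 lower.

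Pair by pair, in the levels as deposited, lancRNA and mRNA passed 2-fold in opposite directions somewhat more often than in the same one. In LE against EE, both passed in the opposite direction in 68 of 246 pairs and in the same direction in 49. In 53 pairs the lancRNA was lower and the mRNA higher, and in 15 pairs the lancRNA was higher and the mRNA lower. In 21 pairs both were higher and in 28 both were lower. With both mean levels at least 10, 26 of 112 pairs were opposite and 18 the same. Scaled by summed mRNA level, 71 pairs were opposite and 50 the same. The pairs were not counted with levels scaled by mapped reads. With that scaling 83 lancRNAs were higher and 78 lower, and 144 of the mRNAs were higher and 34 lower. Among lancRNAs past only the mRNA 5′ end, 88 of 538 pairs were opposite and 157 the same, and among those inside an mRNA 255 of 1329 were opposite and 274 the same. These counts follow in part from how many lancRNAs and mRNAs moved each way, and the difference in counts was not tested.

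**Figure D4:**
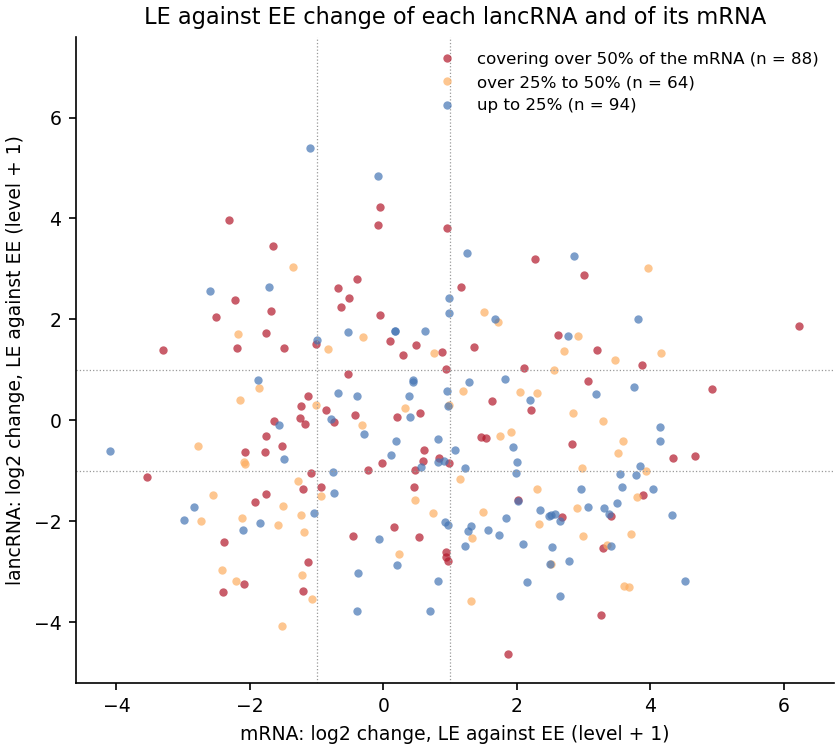
Log2 change in LE against EE (level + 1) of each lancRNA (vertical axis) and of its mRNA (horizontal axis), coloured by the share of the mRNA covered, with dotted lines at a 2-fold change. The lower right region holds the 53 pairs with a lower lancRNA and a higher mRNA, and the upper left region the 15 pairs with a higher lancRNA and a lower mRNA.

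Among pairs with both mean levels at least 10, the widest split in favour of the lancRNA was that of transfrag21487 (contig 112, bases 330456 to 332008, plus strand). It had 43.44 at EE, 284.4 at ME and 483.47 at LE, whereas its mRNA had 27760.1, 5527.69 and 8812.03. The lancRNA was 11.1-fold higher in LE and the mRNA 3.15-fold lower. A similar split was seen at the homolog of MPC3, a mitochondrial pyruvate carrier, where transfrag06951 (contig 103, bases 1043840 to 1044139, minus strand) had 11.23, 51.65 and 63.16 and the mRNA 1255.6, 181.51 and 268.83. The EE level of this lancRNA came from 14 reads in one library and 1 in the other.

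The widest splits the other way were those of transfrag09130, given above, transfrag31795, transfrag13138 and transfrag32127. Levels of transfrag13138 (contig 106, bases 202969 to 203920, plus strand) were 151.17 at EE, 24.61 at ME and 40.33 at LE. It covered 5.17% of an mRNA with 9.74, 217.92 and 213.72, which was 21.9-fold higher in LE. For transfrag32127 (contig 119, bases 190989 to 191537, minus strand) the levels were 34.15, 11.74 and 5.22, and for its mRNA 7.62, 62.52 and 91.21.

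How far the lancRNA ran into the mRNA went with its level. The 88 lancRNAs that cover over 50% of the mRNA had median levels of 22.3 at EE, 23.4 at ME and 24.3 at LE, and the 94 that cover up to 25% had 8.87, 5.55 and 3.66. The longer lancRNAs were also higher: Spearman's coefficient of length and mean level was 0.79 over the 246, and 0.53 with the level per kb. Of the 88, 32 were higher by at least 2-fold and 25 lower in LE against EE, with a median log2 change of 0.02. Of the 94, 16 were higher and 46 lower, with a median of -0.93.

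Levels of lancRNA and mRNA were related across pairs, and more closely where the lancRNA covers more of the mRNA. Over all 246 pairs, Pearson's coefficient of log10(level + 1) was 0.38 at EE, 0.45 at ME and 0.43 at LE, and per kb it was 0.13, 0.34 and 0.33. In the 88 pairs with over 50% covered it was 0.55, 0.74 and 0.76, and per kb 0.23, 0.54 and 0.61. In the 64 pairs with over 25% to 50% covered it was 0.34, 0.55 and 0.47, and in the 94 pairs with up to 25% covered 0.16, -0.02 and 0.00. The lancRNAs inside an mRNA that cover up to 25% of it had coefficients of 0.05, 0.35 and 0.39 (n = 638). Those past only the mRNA 5′ end with up to 25% covered had 0.14, 0.23 and 0.19 (n = 167). The closer relation at over 50% covered was shared by the other positions. There the LE coefficient was 0.63 past only the 5′ end (n = 225), 0.67 inside an mRNA (n = 225) and 0.62 reaching both ends (n = 62). All pairs of a phase share its libraries, the level grows with transfrag length, and these coefficients are given as a description.

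**Figure D5:**
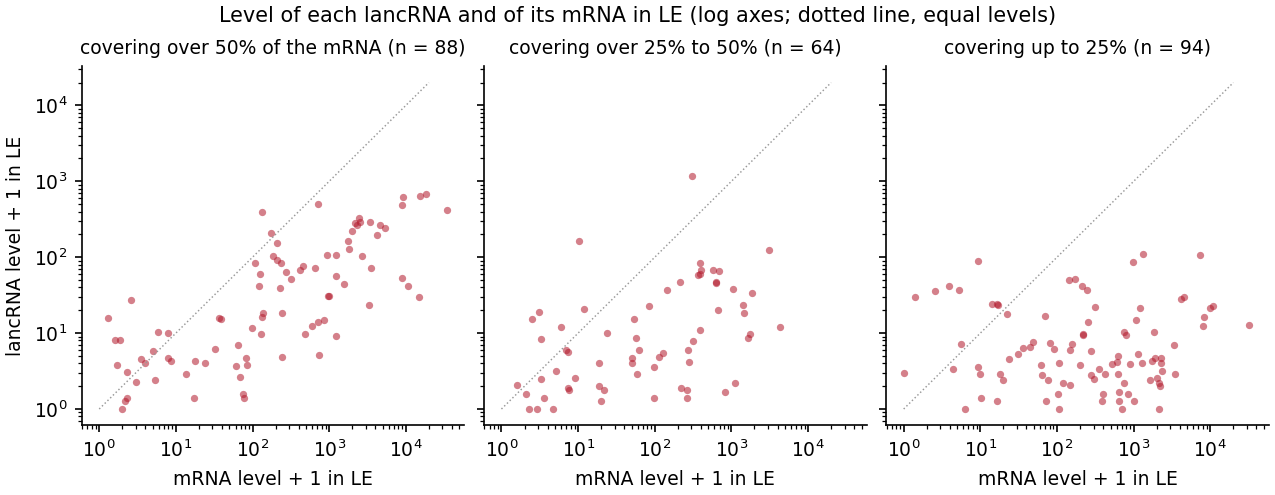
Level plus 1 of each lancRNA against that of its mRNA in LE (log axes, dotted line at equal levels), in panels by the share of the mRNA covered. Pearson's coefficient of the log levels is 0.76 where over 50% is covered, 0.47 where over 25% to 50% is covered and 0.00 where up to 25% is covered.

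As a share of the mRNA level, the lancRNA was lower where the mRNA was abundant. This follows in part from grouping the pairs by the same mRNA level that divides the share. For the 52 pairs with an mRNA mean level of at least 1000, the median lancRNA had 1.90% of the level per kb of its mRNA at EE, 3.27% at ME and 2.54% at LE. For the 90 pairs with an mRNA mean level of 100 to 1000 it was 23.3%, 6.74% and 5.28%. The lancRNA levels themselves were higher in the first set, with medians of 27.1 at EE, 38.8 at ME and 31.2 at LE. In the 90 pairs they were 13.1, 11.1 and 9.7. In the first set 21 lancRNAs were at least 2-fold higher and 14 lower in LE than in EE, and in the other 19 were higher and 38 lower. In a dUTP library a small part of the reads of an abundant mRNA can appear on the opposite strand, and its part in these levels was not tested.

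The closest homologs of the matched genes were set against lists of homolog names, which hold part of each pathway. The lists of carbon metabolism, ribosomal proteins, amino acid synthesis, protein folding and of mitochondrial ribosomal proteins had 0 of these lancRNAs. Genes of oxidative phosphorylation had 2. At the homolog of ATP7, an ATP synthase subunit, transfrag12338 had 2.75 at EE, 9.56 at ME and 7.59 at LE, and the mRNA 146.12, 1063.12 and 1637.5. At the homolog of QCR8, a subunit of the cytochrome bc1 complex, transfrag04593 covered 98.4% of the mRNA and had 4.87, 5.63 and 8.09, against 39.1, 834.15 and 1222.22 for the mRNA, which was 31.3-fold higher in LE. Vesicle transport had 2, transfrag03041 past the end of the coatomer subunit COPG with 30.15, 76.72 and 104.85 beside 6586.6, 5301.48 and 7434.77 for the mRNA, and transfrag06119 at the t-SNARE SEC9 with 1.41, 3.98 and 3.06 beside 937.75, 1330.22 and 2293.69. In all 4 of these pairs the mRNA stood above the lancRNA in every phase. The 1 transporter of the list was KHT2, a hexose transporter, where transfrag00044 had 10.28, 9.94 and 6.41 and the mRNA, with 1384.32, 203.3 and 80.14, was 17.3-fold lower in LE than in EE.

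Further role groups, which include biosynthetic enzymes and transporters that the lists leave out, were drawn up among the named homologs after their values had been seen, and they are given as counts only, beside 27.0% of all transfrags higher and 42.7% lower in LE against EE. Gene names are those of the closest homolog. Genes of transcription and chromatin formed the largest group, with 15 lancRNAs, of which 2 were at least 2-fold higher and 9 lower in LE than in EE, against 8 higher and 4 lower among their mRNAs. Among the 15, transfrag09958 and transfrag09960 lay close together on contig 105, opposite mRNA fragments with the same closest homolog, NAB3. Both count among the 9, so the 9 are not all separate genes. The mRNA fragment of the first was lower and that of the second higher in LE. Of the 9, 5 had a mean level under 10, where 72 of 123 of all these lancRNAs were lower. At such levels, 62.1% (under 5) and 48.0% (5 to 10) of all transfrags were lower. At the homolog of SNF5, a subunit of the SWI/SNF chromatin remodelling complex, transfrag11787 had 34.47 at EE, 6.7 at ME and 8.59 at LE, and the mRNA 10.91, 90.99 and 126.5. At the homolog of RPAC2, a subunit shared by RNA polymerases I and III, transfrag12119 had 35.88, 5.35 and 8.81, and the mRNA 73.6, 310.23 and 476.61. At RPC2, a large subunit of RNA polymerase III, transfrag14670 had 9.74, 8.47 and 38.24 opposite an inner fragment of the gene with 2.04, 114.53 and 228.25. At TYE7, an activator of glycolytic genes, transfrag12176 had 20.95, 49.22 and 11.13, and the mRNA 18057.5, 3806.56 and 4274.36.

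Genes of RNA binding, decay and translation had 6 lancRNAs, 1 higher and 5 lower in LE, and 4 of the 5 had a mean level under 10. The higher one, transfrag07869 at the polyadenylated RNA-binding protein PUB1, had 35.34 at EE, 120.46 at ME and 195.07 at LE, with 5940.41, 2171.51 and 4175.06 for the mRNA. At MAK21, a factor of ribosome assembly, transfrag02360 had 248.9, 62.51 and 83.06, and the mRNA 280.71, 219.09 and 388.75. At RRP6, the nuclear exosome exonuclease that degrades antisense RNAs in *S. cerevisiae*, both transfrags were weak, with 9.5, 2.08 and 1.49 for transfrag08570 and 8.71, 1.99 and 2.26 for the mRNA.

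Of 4 DNA repair genes, 3 had a lancRNA at least 2-fold lower and 3 an mRNA at least 2-fold higher in LE. All 3 of these lancRNAs had a mean level under 5, where 42 of 70 of the lancRNAs were lower (60.0%, against 62.1% of all transfrags). At RAD2, an endonuclease of nucleotide excision repair, transfrag06495 had 8.87 at EE, 1.72 at ME and 3.66 at LE, and the mRNA 136.91, 1098.02 and 1904.35. The log2 change of this lancRNA in LE against EE was -1.08 ± 0.56 (counting error), within 2 widened counting errors. Mitochondrial genes had 7 lancRNAs, 3 higher and 2 lower, opposite mRNAs of which 6 were higher and 1, that of MPC3, lower. At DLDH, the dihydrolipoyl dehydrogenase of pyruvate and 2-oxoglutarate oxidation, transfrag11519 had 6.12, 3.62 and 1.87, and the mRNA 284.46, 2693.65 and 3425.63. The change of this lancRNA, -1.31 ± 0.65 in log2 (counting error), was also within 2 widened counting errors.

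Metabolic enzymes had 7 lancRNAs, 4 higher and 1 lower in LE, against 2 higher and 1 lower among their mRNAs. At LCB1, a subunit of serine palmitoyltransferase in sphingolipid synthesis, transfrag06422 covered 85.8% of the mRNA and had 38.61 at EE, 156.94 at ME and 244.54 at LE, with 8521.73, 3371.46 and 5300.19 for the mRNA. At P5CR, the last enzyme of proline synthesis, transfrag09706 had 77.04, 162.93 and 221.99, and the mRNA 3966.96, 963.18 and 1974.56. At HOSM, a homocitrate synthase of lysine synthesis, both were higher in LE, with 19.15, 49.32 and 51.87 for transfrag11277 and 972.94, 6742.8 and 8961.95 for the mRNA. Membrane transport had 6 lancRNAs, 3 higher and 0 lower. The highest of them, transfrag10484 at a gene whose closest homolog, of low similarity, is the urea transporter DUR3, had 17.9, 359.43 and 265.46, a 14.8-fold difference between LE and EE, and the mRNA had 2394.35, 3864.34 and 4659.84. Genes of the cell cycle, polarity and cytoskeleton had 8 lancRNAs, 2 higher and 2 lower, among them transfrag05828 at the protein kinase KIC1 with the nearly equal EE and LE values 294.64, 183.67 and 293.34, whose mRNA had 7800.82, 1504.07 and 2497.78.

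Among the lancRNAs that cover most of their mRNA, transfrag08855 (contig 104, bases 283307 to 285321, minus strand) covered 99.4% of the mRNA of CAN, a carbonic anhydrase. It had 178.51 at EE, 49.32 at ME and 59.09 at LE, against 29.38, 110.37 and 122.76 for the mRNA, so that the order of the pair changed between EE and ME. Per kb, transfrag14085 (contig 106, bases 840367 to 840573, plus strand) stood at 2.50 times its mRNA over the 3 phases, with 6.04, 26.94 and 23.12 beside 11.62, 27.52 and 13.27 for the mRNA, and it began 1 bp behind an mRNA of its own strand. A single lancRNA of the 246, transfrag15983, overlapped an RNA gene, a tRNA gene.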

How the data were processed

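Strand-specific RNA-seq libraries of *K. marxianus* were grouped by the growth phase in their labels (EE, ME and LE). Reads were mapped by the authors with CLC genomics workbench to the assembly contigs, with non-specific matches placed at random, and joined over all phases into transfrags, which were merged if under 40 bp apart, or up to 100 bp apart with similar coverage, and divided at gene boundaries. CASAVA 1.4 and DESeq were used by the authors, per the submitters' processing notes. The deposited level is a normalized read signal, the mean over both libraries after the authors' scaling, and no transfrag is listed with a mean under 1.34. The analysis had been laid out so that counts per library would be tested, and the file holds means, so no test was made.

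Layouts, overlaps and neighbours were computed from the deposited coordinates. Changes are differences in log2(level + 1), with a limit of 2-fold. From the steps between low levels, the worth of a read in either library was derived, and with it the level of 3 reads and the counting errors. Gene models, homolog names and RNA genes came from the study's tables, of which the gene models were held in part. A functional list was matched by homolog name. Named lancRNAs were the 6 with the highest mean level, the 5 largest rises and 5 largest falls in LE against EE (mean level of at least 10, same direction in ME), the 4 widest splits from the mRNA in each direction (both mean levels at least 10), the 3 with the largest share of the mRNA covered (mean level of at least 10), the 3 highest per kb against the mRNA (mRNA mean level of at least 10) and up to 8 of the lists. The lancRNAs, lists and rule were chosen with earlier results of these data known. Other genes were named by role after their values had been seen, as were transfrag13848, transfrag15983 and transfrag17841 for their place at the edge of a rule. Alternatives are given in the closing section. The programs were tested on simulated data. Python 3.11.15, NumPy 2.4.6, pandas 2.3.3, SciPy 1.17.1 and Matplotlib 3.10.9 were used.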

Additional observations from a re-analysis of the deposited data

How the results depend on the processing

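A pseudocount of 0.5, an overlap of at least 50 bp and leaving out the lancRNA on an RNA gene moved no count of changed lancRNAs or mRNAs by over 1.5 times. With a mean level of at least 10, the lancRNAs past 2-fold numbered 73 in ME against EE (31 lower), 80 in LE against EE (31 lower) and 21 in LE against ME (10 lower), and 40 mRNAs were lower in LE against EE, since fewer transfrags are counted. With a limit of 4-fold they numbered 62 (19 higher, 43 lower), 83 (29 and 54) and 8 (2 and 6), and the mRNAs 102 (25 lower). Scaled by mapped reads, 107 were higher and 44 lower in ME against EE and 83 higher and 78 lower in LE against EE, which turned the direction of both, 76 changed in LE against ME (8 higher, 68 lower) and 34 mRNAs were lower in LE against EE. The share of higher among all changed transfrags was then 71.9% in ME and 52.8% in LE against EE and 9.72% in LE against ME, beside 42.0%, 38.7% and 26.2% with the levels as deposited. Scaled by summed mRNA level outside the 100 highest, it was 37.3%, 27.7% and 6.35%, 5 lancRNAs were higher in LE against ME, and 87 of the mRNAs were higher and 79 lower in LE against EE. With a pseudocount of 5, 19 lancRNAs changed in LE against ME (8 higher, 11 lower) and 28 pairs had the same direction. With both mean levels at least 10, 18 pairs had the same and 26 the opposite direction, and the EE coefficient of the pairs was 0.17. Per kb it was 0.13 in EE and 0.34 in ME. A gap of at most 10 bp left 1 lancRNA with an upstream neighbour, which gives no coefficient and tests nothing, because the authors had joined transfrags under 40 bp apart, and a gap of at most 500 bp left 109. Of the alternatives chosen after seeing the data, the limit of 2 widened counting errors left 19 lancRNAs lower in LE against ME, and leaving out lancRNAs on RNA genes gave shares of 5.14% in ME and 4.84% in LE. At a mean level under 5, the difference in median change from other lancRNAs that overlap 1 mRNA was -0.54.

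No paired analysis was possible because the file holds 1 mean per growth phase. A fit with a replicate term and leaving out each replicate were not run for the same reason. At or under 3 reads stood 40 of the 246 lancRNAs at EE, 24 at ME and 42 at LE, and 3 reads are worth a level of 4.00 at EE, 1.09 at ME and 1.19 at LE.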
